A study of Homo sapiens with 6 samples.

Results

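Transcripts of regulators of G protein signaling (RGS) were examined in human neurons with and without isoproterenol. The genes were RGS2, RGS3, RGS4, RGS7, RGS8, RGS9, RGS10, RGS12, RGS16 and RGS17, which make up 10 of the 19823 genes of the deposited table. They were selected on a list drawn up with the isoproterenol contrast of these same samples in view, so their changes are a description and not an independent test. All 10 exceeded the limit on low values, with 208 to 5037 recovered reads per sample.

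All 6 samples were glutamatergic neurons (iNeurons) derived from WTc11, an established human induced pluripotent stem cell line, and all carried an RBM12 knockdown made by CRISPR interference. Of these, 3 were left untreated and 3 were given isoproterenol, an agonist that raises cAMP. The labels give neither the dose nor the time. These neurons came from the parental line. The iPSC were a clonal line that carries a doxycycline-inducible NGN2 transgene and the dCas9 repressor, so they represent 1 genetic background. Neurons with a control guide were not analysed here, and the contrast therefore concerns RBM12-depleted neurons alone. Per sample, RBM12 itself stood at 244.3, 278.7 and 266.9 normalized counts without isoproterenol and at 194.6, 237.6 and 232.8 with it.

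An RGS protein binds an active G protein alpha subunit and speeds its hydrolysis of GTP, which ends the signal sooner. The classical family members act on alpha subunits of the Gi/o and Gq classes, while Gs, the class that raises cAMP, is not among their usual substrates. In neurons, RGS proteins are known for shortening the responses to neurotransmitter receptors and for setting the speed at which ion channels gated by G proteins close. Families are named for their architecture. The R4 proteins, to which RGS2, RGS3, RGS4, RGS8 and RGS16 belong, are mostly little more than the catalytic domain. R7 proteins, here RGS7 and RGS9, form a complex with the beta subunit GNB5. RGS10 and RGS12 belong to R12, and RGS17 to RZ, a group known for its action on Gz.

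Promoters are shown for RGS2 and RGS4, which had the largest difference with isoproterenol among the 10 genes in the upward and in the downward direction. Each run holds the 250 bases before a transcription start, from RefSeq on GRCh38.p14, plus strand. It is chr1:192808789-192809038 for RGS2 and chr1:163068621-163068870 for RGS4. Capitals mark CGTCA, which is TGACG read on the other strand. TGACG is part of TGACGTCA, the cAMP response element to which CREB, the transcription factor activated by cAMP, is known to bind.

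RGS2: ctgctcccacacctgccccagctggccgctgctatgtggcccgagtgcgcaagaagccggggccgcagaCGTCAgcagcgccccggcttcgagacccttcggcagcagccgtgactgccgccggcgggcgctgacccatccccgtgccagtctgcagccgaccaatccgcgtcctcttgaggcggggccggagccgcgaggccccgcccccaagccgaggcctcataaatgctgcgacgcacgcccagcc

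RGS4: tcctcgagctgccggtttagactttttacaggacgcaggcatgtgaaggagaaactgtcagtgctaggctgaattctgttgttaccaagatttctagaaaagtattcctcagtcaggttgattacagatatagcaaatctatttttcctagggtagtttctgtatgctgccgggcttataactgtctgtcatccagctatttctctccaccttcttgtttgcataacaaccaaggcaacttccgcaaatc

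In the RGS2 promoter the motif began 181 bases before the start, and G and C made up 72.8% of the bases. The RGS4 run, that of its most upstream start, held no such motif, and its G and C content was 42.8%. A CGTCA did lie 32 bases before the next of the 4 starts that RefSeq gives RGS4, and the same copy lay 139 bases before the start after that. RefSeq gave 27 starts for the 10 genes. Windows from 250 bases before to 50 after each start were searched on both strands. TGACG was found in 5 of these 27 windows, those of RGS2, RGS3, RGS4 (2 windows) and RGS12, thus in 4 of the 10 genes. Of all 35116 such windows 24.6% held it, and of all 27305 genes 28.4% did so in at least 1 window. The whole TGACGTCA, which contains TGACG on both strands, was in 0 of the 27 windows and in 1.85% of all windows. A match is a description of the letters, and no binding was measured.

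RGS2 (ENSG00000116741), known for its preference for Gq and as a transcript that responds quickly to many stimuli, lies on chromosome 1 from 192809039 to 192812275 (GRCh38). Without isoproterenol it gave 595.2, 586.4 and 627.9 normalized counts in replicates 1, 2 and 3. With isoproterenol it gave 766.3, 734.6 and 803.2. Every treated sample lay above every untreated one. The mean went from 603.2 ± 21.9 to 768.0 ± 34.3 (SD, n = 3 per group), which is 27.3% more. On the scale of log2(normalized count + 1) the difference was 0.35 (SE 0.068, 95% interval 0.21 to 0.49).

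The replicates of RGS2 scattered about as much as counting reads alone would give. The untreated SD of 21.9 was 0.884 times the counting SD of 24.7, and the isoproterenol SD of 34.3 was 1.20 times that of 28.5. In the same-numbered pairs, each an untreated and an isoproterenol sample, the log2 difference was 0.36, 0.32 and 0.35. These pair values lay within 0.039 of each other, and the counting error of a single pair was at least 0.078. Without regard to the pairs, RGS2 did not pass a false discovery rate of 0.05 (limma adjusted p = 0.116). With the replicate number as a block it did (limma adjusted p = 7.36e-06). It also passed when isoproterenol replicate 2 was left out (limma adjusted p = 0.0307), and the differences with 1 sample left out ran from 0.32 to 0.38. Of the 18130 genes tested, 1277, RGS2 included, had a difference at least as high as that of RGS2 (7.04%). Tested genes whose mean level was within a factor of 2 of that of RGS2 numbered 4875. Among them 22, RGS2 included, were as high, a rank that the choice of the gene has already used.

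RGS4 (ENSG00000117152; chromosome 1, 163068775 to 163076802) acts on Gi/o and Gq and is known as an abundant RGS transcript of cortical neurons. Its untreated samples were at 1262, 1158 and 1265 normalized counts, and its isoproterenol samples at 1092, 1002 and 1094. All 3 treated values were thus below all 3 untreated values. The mean decreased from 1229 ± 60.95 to 1063 ± 52.5 (SD, n = 3 per group), and the log2 difference was -0.21 (SE 0.060, 95% interval -0.34 to -0.083).

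Within each of the 3 pairs the RGS4 difference rounded to the same -0.21. The pair values were within 0.00096 of each other, although counting alone gives each an error of at least 0.060, so their closeness is finer than the reads can resolve. Replicate 2 was the lowest sample of both groups. RGS4 did not pass the threshold without the block (limma adjusted p = 0.349) and passed with it (limma adjusted p = 0.00119). DESeq2 with the block did not call RGS4 (DESeq2 adjusted p = 0.181). With 1 sample left out its difference ran from -0.25 to -0.17.

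Because RGS2 was higher and RGS4 lower, their ratio separated the groups by a wide margin. The ratio of RGS2 to RGS4 normalized counts was 0.471, 0.506 and 0.496 in the untreated samples. In the isoproterenol samples it was 0.702, 0.733 and 0.734. The ratio is free of the scaling between samples, but this pair of genes was picked after their values were seen, and the ratio was not tested.

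**Figure D1:**
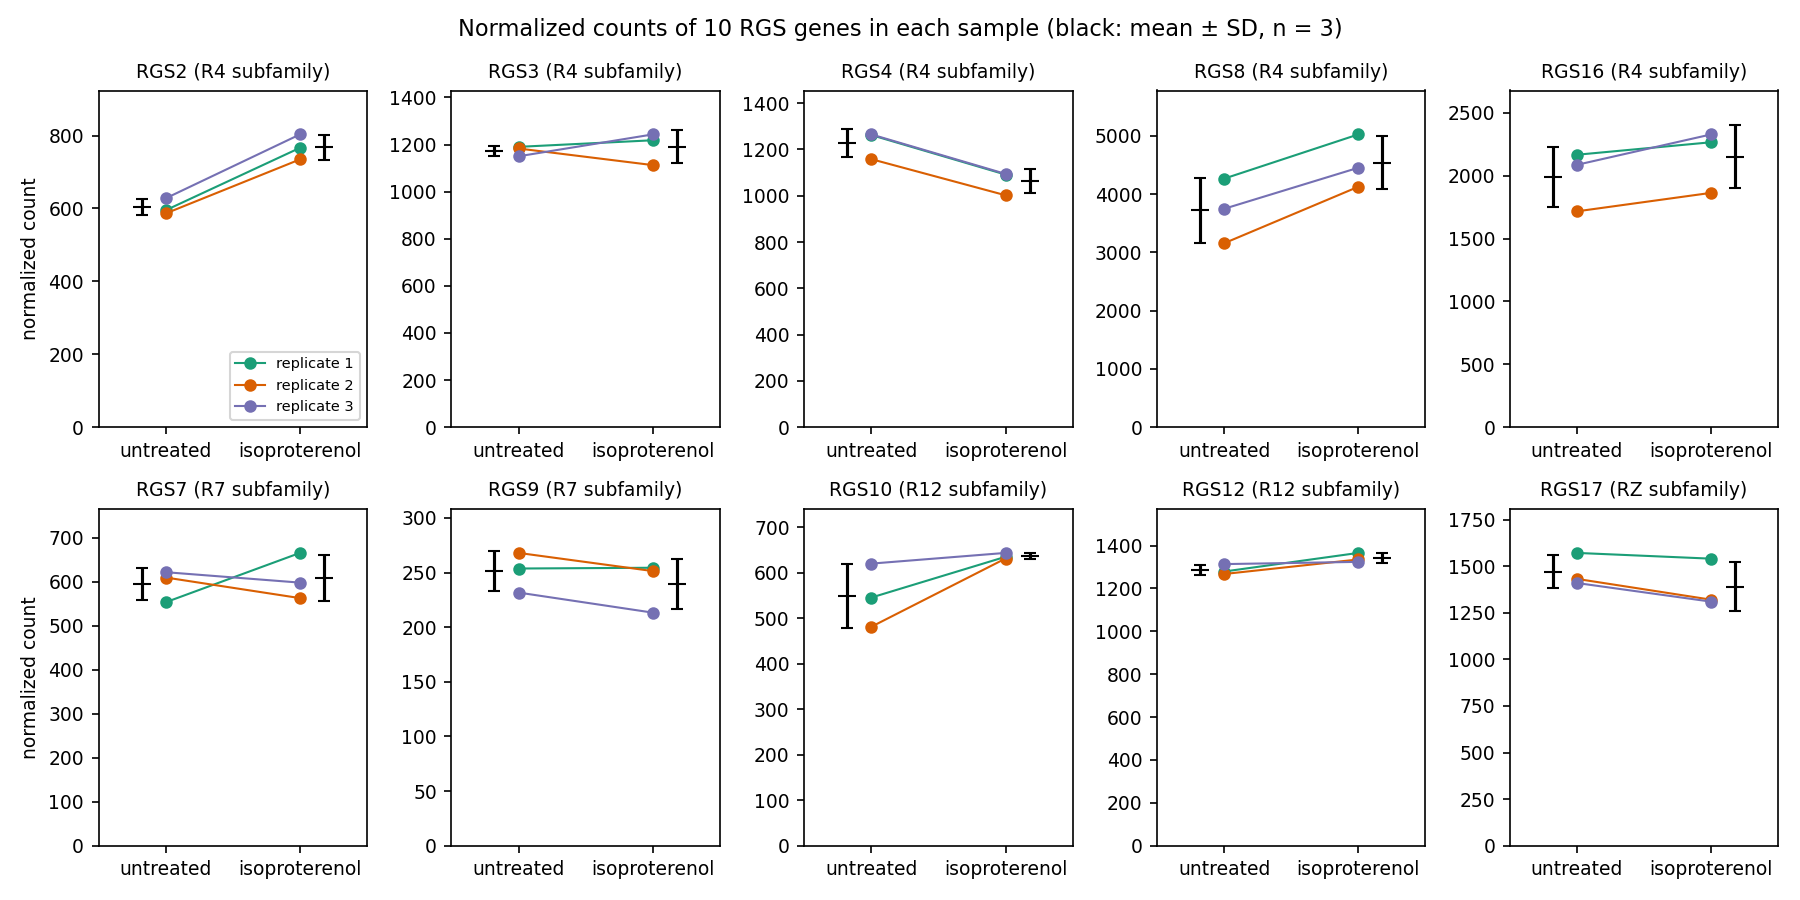
Normalized counts of the 10 RGS genes, with a panel for each gene and axes that start at 0. Colored points are the samples, lines join same-numbered replicates, and black bars give the mean ± SD (n = 3 per group). RGS2 is above the untreated range in all 3 isoproterenol samples and RGS4 is below it, while the lines of RGS8 run upward from starting points far apart.

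RGS8 and RGS16 are the most abundant R4 members in these neurons and lie next to each other. RGS16 spans 182598623 to 182604389 on chromosome 1 and RGS8 spans 182641816 to 182684587, with 37426 bases between them and both on the minus strand. In all, 5 of the 10 genes are on chromosome 1: these 2, RGS2, RGS4 and RGS7.

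RGS8 (ENSG00000135824) acts on Gi/o and is known for speeding the gating of potassium channels by G proteins. It counted 4267, 3157 and 3749 in the untreated samples and 5026, 4128 and 4454 in the isoproterenol samples. The groups overlapped, since untreated replicate 1 was above isoproterenol replicate 2. Each treated sample was nevertheless above its own partner, by 0.24, 0.39 and 0.25 on the log2 scale in pairs 1, 2 and 3. The means were 3724 ± 555 and 4536 ± 455 (SD, n = 3 per group), 21.8% apart.

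The untreated SD of RGS8 was 9.03 times what counting gives, the widest margin of the 10 genes. Its log2 difference of 0.29 had an SE of 0.14 in limma without the block and of 0.029 with it. The SE with the block is moderated by the spread of other genes, while the 3 pair differences themselves spanned 0.15. RGS8 did not pass the threshold without the block (limma adjusted p = 0.698) and did so with it (limma adjusted p = 7.59e-14). Through this moderation, the p with the block does not measure the spread of the 3 pairs alone. The size depended on single samples when the pairs were not used. It was 0.18 without untreated replicate 2 and 0.39 without untreated replicate 1.

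RGS16 (ENSG00000143333), which acts on Gi/o and Gq, had the same layout at a smaller size. Its values were 2167, 1717 and 2087 without isoproterenol and 2266, 1864 and 2328 with it, so the groups overlapped. The pair differences were 0.065, 0.12 and 0.16 (log2), all upward. Over groups the difference was 0.11 (SE 0.12, limma adjusted p = 0.875), and with the block the limma adjusted p was 0.0493, just inside the threshold. DESeq2 with the block did not call RGS16 (DESeq2 adjusted p = 0.730). With 1 sample left out and no block the difference was smallest without untreated replicate 2, at 0.011. It was largest without isoproterenol replicate 2, at 0.21. Over the 6 samples the RGS8 and RGS16 values had a Pearson correlation of 0.82, given as a description, since same-numbered samples of both groups enter it. The ratio of RGS16 to RGS8 was 0.536 ± 0.0253 without and 0.475 ± 0.0413 with isoproterenol (SD, n = 3 per group), and its ranges overlapped.

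RGS3 (ENSG00000138835), whose longer isoforms carry further domains, was the R4 gene with the smallest difference. Its normalized counts were 1190.4, 1183 and 1150.3 untreated and 1218, 1113 and 1243 with isoproterenol. Pairs 1 and 3 were higher by 0.033 and 0.11 (log2), and pair 2 was lower at -0.089. The difference over groups was 0.019, with a 95% interval of -0.10 to 0.14 (limma adjusted p = 0.966).

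Among the R12 genes, RGS10 (ENSG00000148908; chromosome 10, 119499817 to 119542719), a small protein known for its action on Gi, gave 545.1, 480.9 and 619.6 normalized counts in the untreated samples. With isoproterenol it gave 634.6, 630.8 and 643.2. The groups did not overlap, although untreated replicate 3 came close to the lowest treated sample. The treated samples lay close together, with an SD of 6.31 where counting gives 26.0, and the untreated SD was 69.4. The difference was 0.22 (SE 0.083, 95% interval 0.047 to 0.40), and the pair values of 0.22, 0.39 and 0.054 were unequal. RGS10 did not pass without the block (limma adjusted p = 0.548) and passed with it (limma adjusted p = 0.0249). The limma p with the block rests on a spread moderated by that of other genes. DESeq2 with the block did not call RGS10 (DESeq2 adjusted p = 0.655). Without untreated replicate 2 the difference was 0.13, and without untreated replicate 3 it was 0.31.

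RGS12 (ENSG00000159788), a large protein with several domains besides the RGS domain, had values of 1279, 1268 and 1314 untreated and 1366, 1335 and 1324 with isoproterenol. These groups did not overlap either, yet the mean differed by only 4.28%. Both SDs, 24.0 and 21.6, were below the counting SDs of 36.1 and 37.7. The log2 difference of 0.060 had a 95% interval of -0.050 to 0.17 and did not pass in either fit (limma adjusted p = 0.827, and 0.545 with the block).

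The R7 genes gave no common direction. RGS7 (ENSG00000182901) was at 553.4, 609.6 and 621.7 untreated and at 665.5, 562.8 and 598.0 with isoproterenol, higher in pair 1 by 0.27 and lower in pairs 2 and 3 (-0.12 and -0.056, log2). Its group difference of 0.032 (limma adjusted p = 0.954) turned to -0.034 without isoproterenol replicate 1 and to -0.020 without untreated replicate 1. RGS7 shares 536 and 32 exonic bases with 2 genes on the opposite strand, the only such overlap among the 10 genes. Whether reads were counted by strand is not given in the sources used here. RGS9 (ENSG00000108370), known from photoreceptors and striatal neurons, was the least counted member. Its counts were 253.7, 268.0 and 231.7 untreated and 254.4, 251.4 and 213.4 with isoproterenol, a difference of -0.069 (limma adjusted p = 0.922).

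RGS17 (ENSG00000091844), the RZ gene, was at 1572, 1432 and 1410.0 untreated and at 1541, 1320.5 and 1309.9 with isoproterenol. It was lower in all 3 pairs, by values of -0.029, -0.12 and -0.11 (log2), while its groups overlapped. The difference of -0.084 (95% interval -0.22 to 0.054) did not pass in either fit (limma adjusted p = 0.802, and 0.310 with the block). Leaving out untreated replicate 1 gave -0.036, and leaving out isoproterenol replicate 1 gave -0.16.

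**Figure D2:**
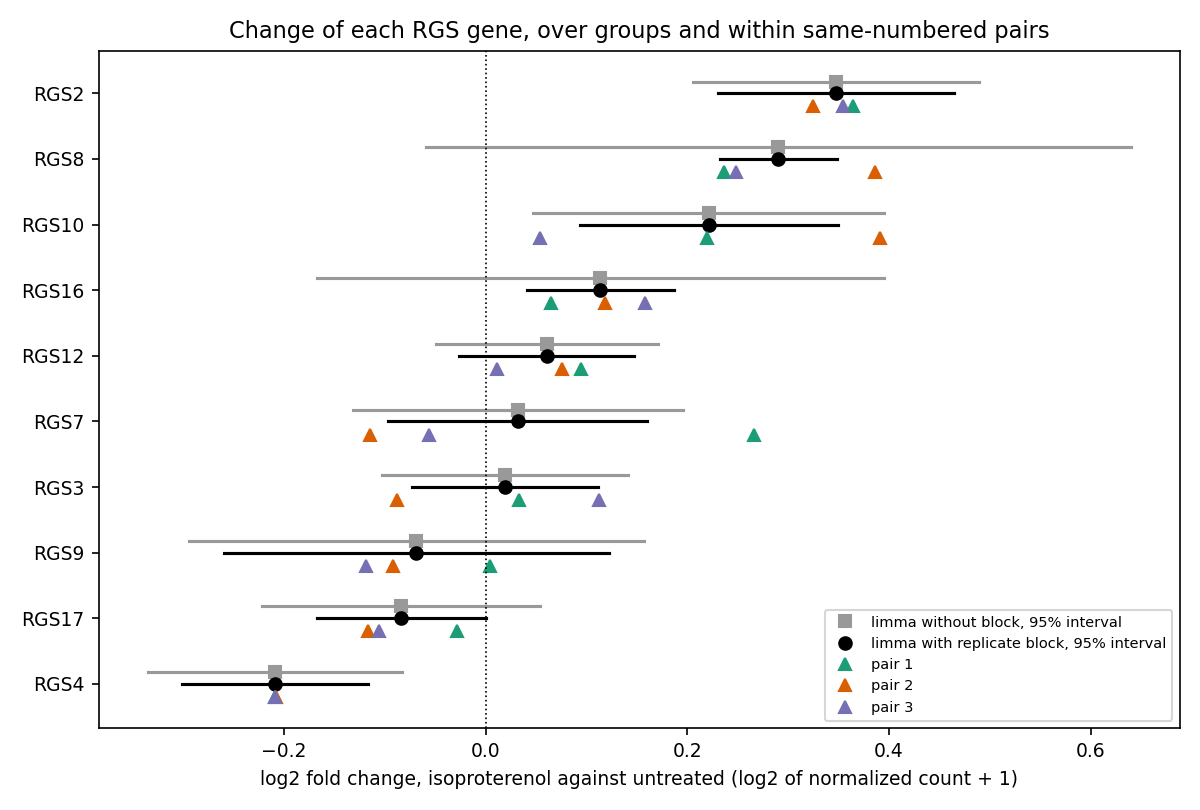
Log2 fold change of each RGS gene, isoproterenol against untreated, on the scale of log2(normalized count + 1). Squares and circles carry the 95% interval of the limma fit without and with the replicate block, and triangles are the 3 pairs. The block shortens the intervals of RGS8 and RGS16 most, and the 3 triangles of RGS4 fall on each other at -0.21.

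Counted together, 7 of the 10 genes were above 0 and 3 below, where 50.5% of all tested genes were above 0. In all 3 pairs, 5 were higher (RGS2, RGS8, RGS10, RGS12 and RGS16), as were 3353 of all 18130 genes. In all 3 pairs, 2 were lower (RGS4 and RGS17), as were 3191 of all genes. The pairs of RGS3, RGS7 and RGS9 were mixed. The median log2 difference was 0.046, beside 0.0015 over all 18130 genes. It was 0.025 without isoproterenol replicate 1, 0.077 without isoproterenol replicate 2 and 0.070 without untreated replicate 3. In limma without the block 0 of the 10 passed, where 0.0165% of all tested genes passed in either direction, and 3 (RGS2, RGS4 and RGS10) had an unadjusted p under 0.05, as did 7.68% of all genes. edgeR without the block called 0 of the 10 and 0.0165% of all genes. DESeq2 without the block called RGS2 (adjusted p = 0.0374) and 0.116% of all genes. In limma with the block, 4 passed upward (RGS2, RGS8, RGS10 and RGS16) where 2.82% of all genes did, and RGS4 passed downward where 2.06% did. The groups did not overlap in 3 members that were higher (6.73% of all genes) and in 1 that was lower (6.19%). Since the genes were listed with this contrast known, nothing is read from these shares.

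The 5 genes that passed with the block had another measure in common. In each of them replicate 2 was the lowest sample of both the untreated and the isoproterenol group, and in the remaining 5 genes it was not. A fit with the block favors genes whose same-numbered samples deviate together, so this is partly built into the call. The share of all genes with this order was not computed, and nothing is read from it. Untreated replicate 2 had the most recovered reads of the 6 samples (21488793) and isoproterenol replicate 2 the fewest (18116816). What separates replicate 2 was not tested. Replicates are separate libraries by their labels, but nothing states that they came from separate cultures. The p-values therefore concern the spread between these samples only, which limma moderates by the spread of other genes.

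Levels can be compared between genes only per length, and the rule that lists the genes makes no use of them. Per kb of annotated exon, RGS16 was highest in the untreated samples, at 826.4 ± 99.7 normalized counts per kb (SD, n = 3). RGS8 followed at 555.9 ± 82.8 and RGS10 at 430.6 ± 54.5, and the samples of these 2 overlapped. RGS2 came next at 288.9 ± 10.5, then RGS4 at 259.8 ± 12.9 and RGS17 at 185.5 ± 11.04. A gap lay below them, with RGS12 at 93.5 ± 1.75 and RGS3 at 89.3 ± 1.63. RGS9 (35.6 ± 2.59) and RGS7 (27.5 ± 1.68) were lowest. Apart from RGS8 and RGS10, every neighbor in this order was separate in its 3 samples. From first to last the level spanned a factor of 30.1, while the largest isoproterenol difference, that of RGS2, was a factor of 1.27.

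The order of all 10 genes was the same in the isoproterenol samples, although the RGS2 level went to 367.8 ± 16.4 and the RGS4 level to 224.7 ± 11.1 per kb, which widened the step between them. Compared with other genes, RGS16 was above 95.2% of the 18064 tested genes with a known length and RGS8 above 92.1%. RGS2 was above 83.2% and RGS4 above 81.3%, and 8 of the 10 members exceeded the median gene (61.2 per kb). RGS9 and RGS7 did not. The lengths matter for the lower ranks. RGS7 has 55 annotated transcripts and 21651 bases of exon in all, against 5205 in its longest transcript. With the longest transcript as the length, 6 of the 10 genes kept their rank, and RGS3, RGS17, RGS7 and RGS9 changed theirs. In bulk samples, fewer cells that express a gene and less RNA per cell cannot be told apart.

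**Figure D3:**
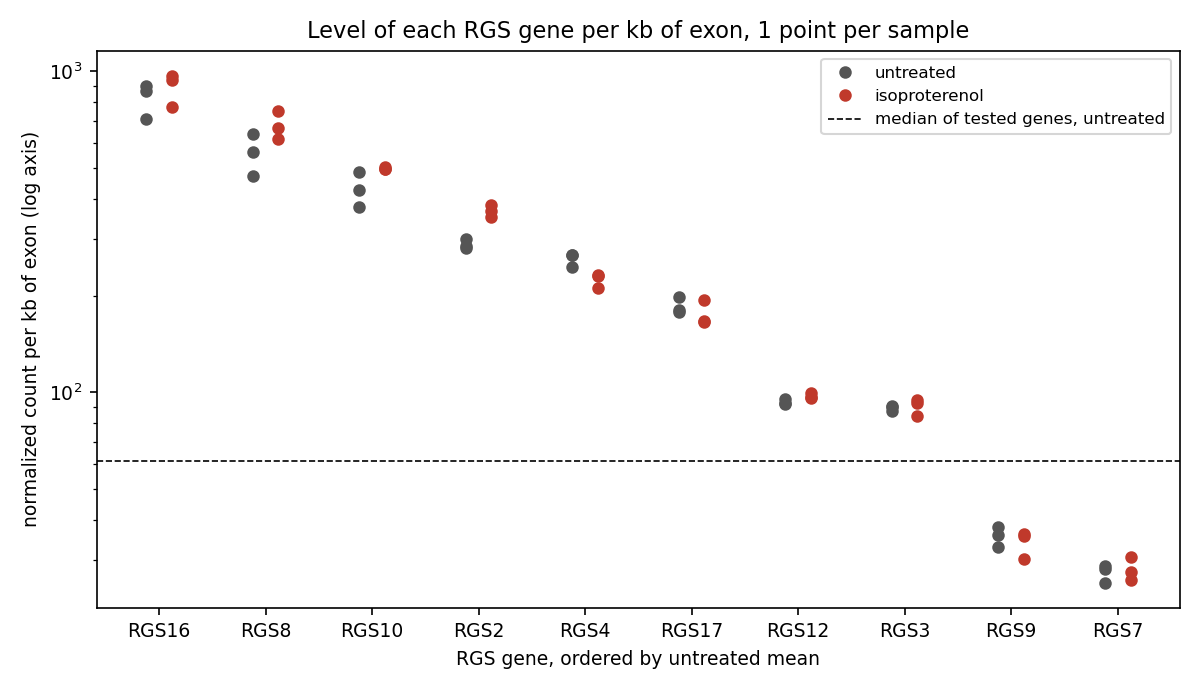
Level of each RGS gene in normalized counts per kb of exon, on a log axis, with a point per sample (grey untreated, red isoproterenol) and a dashed line at the median of the tested genes in untreated samples. The order runs from RGS16 to RGS7, and RGS2 and RGS4 move apart with isoproterenol.

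The 10 genes together gave 11860.1 to 13684 normalized counts in the untreated samples and 12942 to 14830 with isoproterenol, and these ranges overlapped. That is 0.0570% to 0.0711% of all normalized counts of a sample.

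The remaining RGS genes in the table were RGS5, RGS6, RGS11, RGS14 and RGS19, which were tested, and RGS20 and RGS22, which had too few reads. RGS1, RGS13, RGS18 and RGS21 were not analysed here. In both fits 0 of the 5 tested genes passed, and 0 had non-overlapping groups or an unadjusted p under 0.05 without the block. Their median log2 difference was 0.064. RGS5 was highest at 0.37 (SE 0.26), from 30.7 ± 5.17 to 40.9 ± 11.6 normalized counts, and RGS6, an R7 gene, was lowest at -0.13 (SE 0.11). Their levels per kb were 4.64 ± 0.780 and 40.6 ± 5.62 untreated, both below that of RGS12. RGS14 was at 48.1 ± 6.91 per kb, also below RGS12, and RGS19 at 119.5 ± 9.99, above it. RGS11 was at 393.4 ± 23.2 per kb, above RGS2 and RGS4.

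G alpha subunits are the substrates of RGS proteins. Of 13 G alpha genes tested, 0 passed without the block. With it, GNAS and GNA11 passed upward and GNAI1 downward. GNAI1, a Gi subunit on which most of these RGS proteins act, was at 4353, 4465 and 4460 untreated and at 4061, 4122 and 3892 with isoproterenol, and the groups did not overlap. Its log2 difference was -0.14 (limma adjusted p = 0.399, and 4.05e-04 with the block). GNA11, a Gq subunit, went from 2131 ± 115 to 2316 ± 138 (SD, n = 3 per group; log2 difference 0.12, limma adjusted p = 0.629, and 0.0281 with the block). The Gs gene GNAS differed by 0.25 in log2, between the values of RGS10 and RGS8. Its groups overlapped, and its call depended on the block (limma adjusted p = 0.655, and 1.31e-39 with the block). The G alpha differences ran from -0.14 for GNAI1 to 0.44 for GNA15, which had under 11 normalized counts in each sample.

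Of the 10 tested genes for partners of R7 proteins and other modulators of G alpha subunits, 0 passed in either fit. PCP2 was not analysed here. Their differences ran from -0.16 for GPSM3, at 6.98 to 26.1 normalized counts, to 0.54 for GPR179, at 6.21 to 19.0. In GNB5, named after its values were seen, the groups did not overlap, with isoproterenol lower (3280, 3235 and 3411 against 3188, 3120 and 3233).

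The genes whose values were most like those of RGS2 were sought among 11586 other genes, all those averaging at least 100 normalized counts. The measure was the Pearson correlation of log2(normalized count + 1) over the 6 samples, which hold both groups and share the pairs, and no test was made. Among the 5 highest were CCM2L (0.993), GTF2IRD1 (0.991), SGK1, a serum- and glucocorticoid-regulated kinase (0.989), and the transcription factor gene CASZ1 (0.989). SGK1 was at 150.4, 147.1 and 163.4 untreated and at 185.6, 182.2 and 200.02 with isoproterenol, and so ranked all 6 samples in the order in which RGS2 did. CCM2L and GTF2IRD1 kept that order too, as did 55 of the 11586 genes in all. The log2 differences of these named genes ran from 0.13 for GTF2IRD1 to 0.30 for SGK1, all smaller than that of RGS2. SGK1 passed in neither fit (limma adjusted p = 0.582, and 0.128 with the block), nor did GTF2IRD1 or CASZ1. CCM2L passed only with the block (limma adjusted p = 0.474, and 0.0414 with the block). Among the members, the correlation with RGS2 was highest for RGS12 (0.85) and RGS10 (0.82) and lowest for RGS4 (-0.74).

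**Figure D4:**
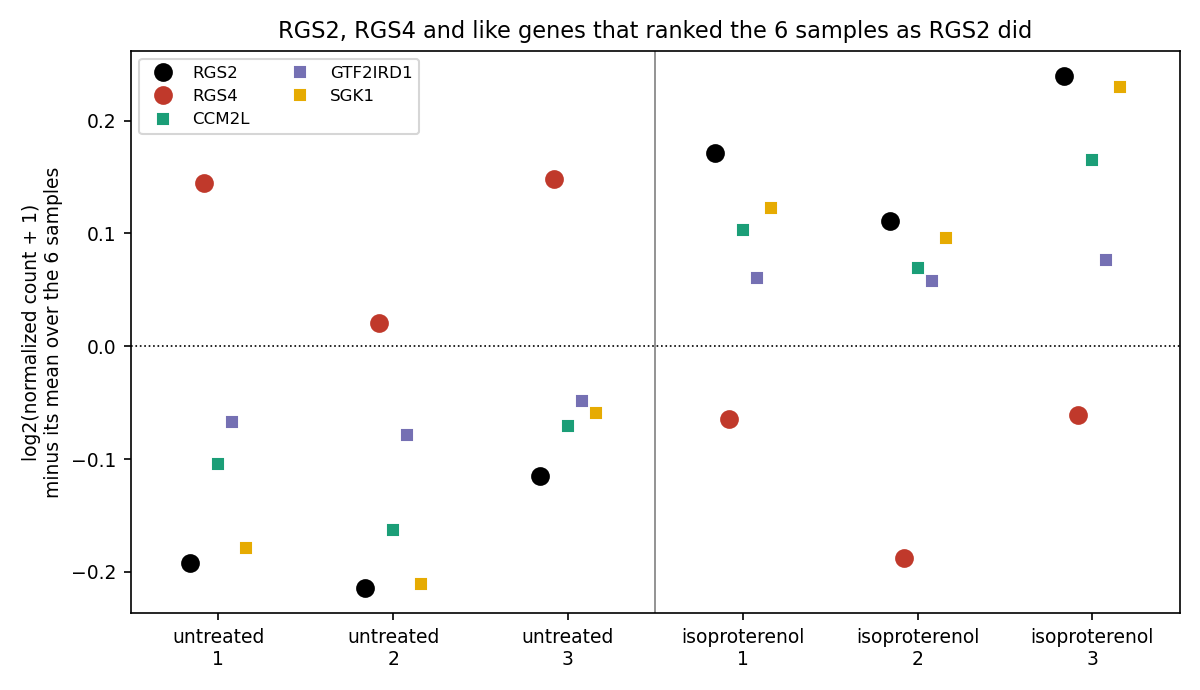
Values of RGS2, RGS4 and CCM2L, GTF2IRD1 and SGK1, the genes among the 5 most like RGS2 that ranked the 6 samples as RGS2 did, as log2(normalized count + 1) minus the mean of the gene over the 6 samples, with a column of points for each sample. RGS2 and these genes are below 0 in all untreated and above 0 in all isoproterenol samples, and RGS4 is the reverse.

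Of the markers fixed for the cell type, the 8 of glutamatergic neurons were all present and summed to between 338100 and 357286 normalized counts per sample. Most of this sum was NEFL, at 275114 to 294712, so the sum says little of the other markers. SLC17A6 was at 12393 to 14710 and SLC17A7 at 2968 to 3318. TUBB3 was low among the 8, at 69.2 to 94.4, while MAP2, the dendrite marker, was at 32515 to 34627. Markers of GABAergic neurons (3 of 3 present) summed to 55.3 to 60.0 untreated and 66.9 to 79.0 with isoproterenol. GAD1 and GAD2 were higher with isoproterenol in all 3 pairs, but SLC32A1 was lower in all 3. The SLC32A1 values were 16.707, 24.191 and 16.551 untreated and 10.976, 19.605 and 13.335 with isoproterenol. The GABAergic genes thus had no common direction, and their part in the RGS values was not tested. Markers of astrocytes (2 of 4 present) summed to 159.8 to 175.1 untreated and 134.4 to 156.8 with isoproterenol. The ranges of this sum did not overlap, but those of each gene alone did. AQP4 was lower with isoproterenol in all 3 pairs, while S100B was lower in pairs 1 and 3 and higher in pair 2. The part of the astrocyte markers in the RGS values was not tested either. Markers of pluripotent cells (2 of 4, 14.4 to 28.8) and proliferating cells (1 of 3, 112.2 to 147.2) overlapped between the groups. Recovered reads were 18116816 to 21488793 per sample, and the depth ranges of the groups overlapped.

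**Figure D5:**
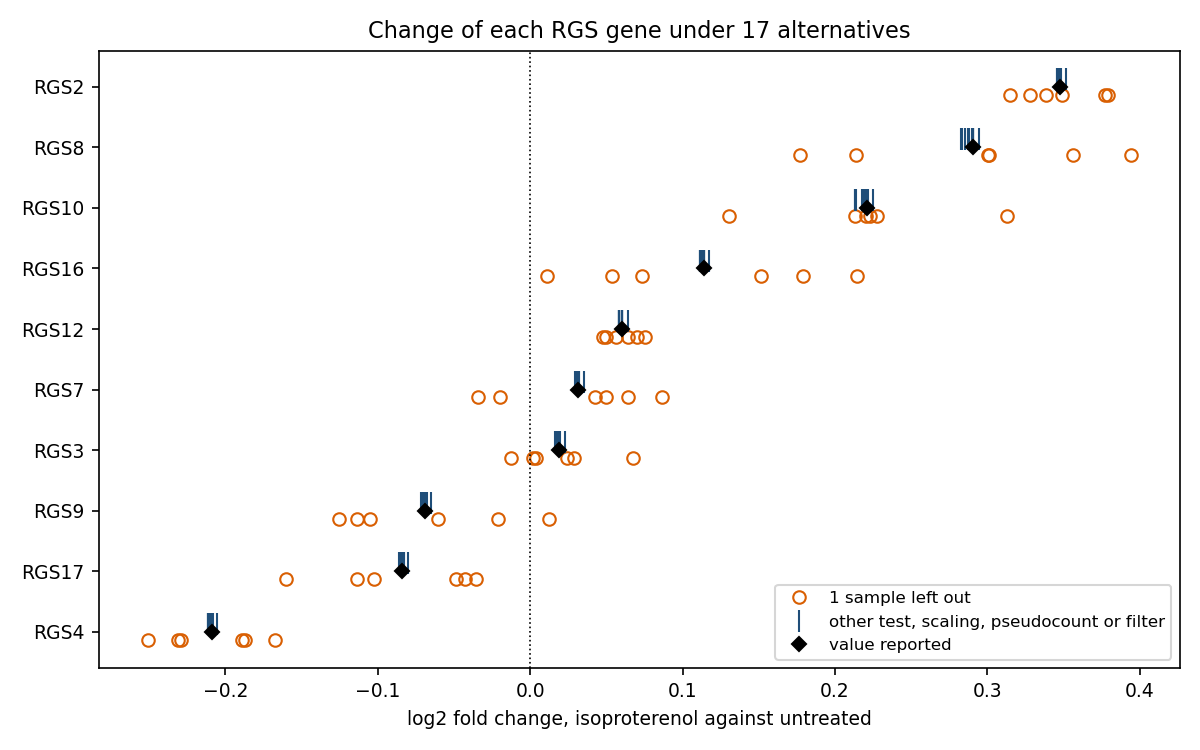
Log2 fold change of each RGS gene under the 17 alternatives, with the reported value as a diamond. Circles leave out 1 sample, and bars change the test, scaling, pseudocount or filter. Bars stay close to the diamond for every gene, circles of RGS16 spread from 0.011 to 0.21, and circles of RGS3, RGS7 and RGS9 cross 0.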

How the data were processed

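Poly(A) RNA of RBM12-depleted iNeurons was sequenced in 3 untreated and 3 isoproterenol-treated samples, grouped by their titles. Per the labels and the study's methods, the authors prepared directional libraries, aligned reads to GRCh38 with STAR and counted them per gene with featureCounts (Subread). Versions, annotation and strand setting are not given in the sources used here. Deposited values are a signal, namely read counts divided by the DESeq2 size factor of the sample, and are called normalized counts here. Whole reads were recovered for 100% of the values (tolerance 0.01 read). Counting SDs cover counting error only. The 95% intervals of log2 differences come from limma and rest on the spread between samples, moderated by that of other genes.

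Genes with more than 5 reads in at least 4 samples were kept, 18130 of 19823. As these are not raw counts, limma 3.58.1 (R 4.3.3) was used with its robust and trend options, two-sided, on log2(normalized count + 1), with Benjamini-Hochberg adjustment over all genes tested. Fold changes on this scale understate those of low genes. Scripts were tested on simulated data. edgeR 4.0.16 and DESeq2 1.42.0 were run on the recovered reads as alternatives, beside other scalings, pseudocounts and filters, and fits without each sample. Positions and exon lengths came from GENCODE release 44, which held 19742 of the identifiers.

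Subtracting group means left residuals that, over 11587 genes, correlated between same-numbered samples at 0.269, 0.493 and 0.388, and between differently numbered samples at -0.351 to 0.00585. Every pair was above 0.1, so the numbers, which come from the titles, were taken to pair the samples. The values of the fit with the number as a block stand beside results whose call they change.

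The genes named are the 10 RGS genes, RBM12, the 5 genes most like RGS2, and, from lists of further RGS, G alpha and modulator genes, those past a false discovery rate of 0.05 in a limma fit, the highest and the lowest. Of these, 1 gene is not reported here. The members, lists and tests were chosen with earlier results of these data known.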

Additional observations from a re-analysis of the deposited data

How the results depend on the processing

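The fit without the replicate block was compared with 17 alternatives, 6 of which left out 1 sample. RGS2 was higher in all of them, at a log2 difference of 0.348 with the replicate block in limma, 0.346 with the block in edgeR, 0.347 in DESeq2 and 0.346 in DESeq2 with the block, each past a false discovery rate of 0.05, which it did not pass in the reported fit. Its adjusted p over the alternatives ran from 2.29e-06 to 0.440, and its difference with 1 sample left out from 0.315 to 0.379. The number of RGS members past the threshold was 0 as reported, 5 with the replicate block in limma and in edgeR, 1 in DESeq2 (RGS2), 2 in DESeq2 with the block (RGS2 and RGS8), and 0 to 1 with 1 sample left out. The calls of RGS4, RGS10 and RGS16 with the block in limma and edgeR were not made by DESeq2 with the block. Over all genes tested the count was 3 as reported, 885 with the block in limma, 977 with the block in edgeR, 21 in DESeq2, 143 in DESeq2 with the block, and 2 to 67 with 1 sample left out (67 without isoproterenol replicate 2). The causes of these differences were not tested. The block changed no other call of an RGS member. TMM and total-count scaling, pseudocounts of 0.5 and 5, no filter, a mean of at least 50, and edgeR without the block left the number of members past the threshold at 0.

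With 1 sample left out, RGS3 reached -0.0125 to 0.0673, RGS7 -0.0344 to 0.0864 and RGS9 -0.125 to 0.0126, which includes both signs, while RGS2, RGS4, RGS8, RGS10, RGS12, RGS16 and RGS17 kept their sign in all 17 alternatives. The order by level per kb kept 6 of 10 ranks with the longest transcript as the length. Of the 5 genes most like RGS2, 3 were at the top by Spearman's rho.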
